A study of Mus musculus with 2 samples.

Results

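Mir126a, Mir143 and Mir145a are 3 of the 1973 microRNA (miRNA) genes counted in the embryonic mouse midbrain, and they are known as miRNAs of blood vessel cells. They were chosen by symbol, Mir126a for endothelial cells and the Mir143 and Mir145a cluster for the mural cells that wrap vessels, and all 3 were found in the deposited tables. The data are 2 libraries of small RNA (under 30 bases) from the midbrain of healthy B6NCrl embryos at 15.5 days, with males and females pooled in each. Replicate 1 was a pool of 78 embryos and replicate 2 a pool of 62. Both carry the same donor identifier, and the labels give no mutation or treatment. No other tissue, age or genotype was measured, so the values below describe 1 group with n = 2 and allow no contrast between conditions.

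Endothelial cells line the vessels, and Mir126a is a miRNA strongly enriched in them. In mice and zebrafish it supports vessel growth and integrity by repressing Spred1 and Pik3r2, which dampen the signal of vascular endothelial growth factor. Mural cells are pericytes and smooth muscle cells. Mir143 and Mir145a are transcribed together and, in mice, are needed for vascular smooth muscle to take on its contractile state. In the embryonic brain, vessels grow inward from a plexus at the surface and recruit pericytes as they do so. Counts of these miRNAs in whole tissue mix the number of vessel cells with the amount of each miRNA per cell, and fewer cells of a type cannot be told apart from less RNA per cell.

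Mir126a is shown here because it is the only member with a listed sequence. It also holds most of the reads of the 3 members, and a second miRNA gene is annotated on the strand opposite to it. The gene (ENSMUSG00000065540.1) lies on chromosome 2 at 26591357 to 26591429 on the plus strand (mm10) and is 73 bases long. It sits inside Egfl7, a gene for a protein secreted by endothelial cells. Of 9 Egfl7 transcripts in GENCODE M21 that span it, 8 have it in an intron and 1, a retained-intron transcript, has it in an exon. On the opposite strand, Mir126b (26591363 to 26591420) overlaps it over 58 bases. The sequences are from RefSeq on GRCm38.p6, each read 5′ to 3′ on its own strand. Capitals mark the mature 3p arm in the hairpin and the seed, bases 2 to 8 that pair with targets, in the mature miRNAs.
Mir126a hairpin: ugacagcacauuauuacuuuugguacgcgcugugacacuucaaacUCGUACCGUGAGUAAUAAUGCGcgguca
miR-126a-3p: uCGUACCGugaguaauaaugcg
miR-126b-5p: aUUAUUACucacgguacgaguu
miR-126b-3p: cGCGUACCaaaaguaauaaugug

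Among the 1738 mature mouse miRNAs of that RefSeq table, the seed of miR-126a-3p occurred in 1, itself, so no other listed miRNA has the same 7 bases. Its 3p arm and miR-126b-5p overlap by 19 bases on opposite strands, and their seeds differ. The deposited counts are per hairpin gene, so reads of the 3p and 5p arms of Mir126a cannot be separated here. Of the 3 members, only Mir126a has a sequence in that RefSeq table, which lists no mature 5p arm for it.

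Mir145a (ENSMUSG00000065592) and Mir143 (ENSMUSG00000065445) lie on the minus strand of chromosome 18, at 61647825 to 61647894 and at 61649196 to 61649258. Between them lie 1301 bases. They were annotated between other genes, with no host gene spanning either on the same strand. Carmn, a long noncoding RNA known from smooth muscle, ends 366 bases upstream of Mir143. Coordinates are of GENCODE M21, where Mir143 and Mir145a have a later version number than in the deposited tables, so their ends may differ by some bases from those counted.

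Mir126a was by far the most counted of the 3. Its sense reads numbered 85429 in replicate 1 and 124071 in replicate 2. Scaled to the sense reads of all miRNA genes in the library (CPM, counts brought to a common total), it stood at 24909 CPM (95% exact interval 24744 to 25074) in replicate 1 and 21568 CPM (21450 to 21687) in replicate 2. The mean level was 23238 ± 2362 CPM (SD, n = 2). The libraries lay further apart than their intervals, which cover counting error only. The SD was 10.2% of the mean, where counting alone gives 0.342% in replicate 1 and 0.284% in replicate 2. In rank among all miRNA genes Mir126a was at 9 in replicate 1 and 12 in replicate 2.

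Mir143 was the abundant member of the mural cluster. It had 21681 reads in replicate 1 and 33327 in replicate 2. These came to 6322 CPM (6238 to 6406) and 5794 CPM (5732 to 5856), again higher in replicate 1 and apart beyond counting error. The mean level was 6058 ± 373 CPM (SD, n = 2), at rank 30 and 34 in replicates 1 and 2.

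Mir145a, its neighbour, was far lower. It had 240 reads in replicate 1 and 429 in replicate 2, or 70.0 CPM (61.4 to 79.4) and 74.6 CPM (67.7 to 82.0). These intervals overlap, so no difference between the pools was detectable at this depth. The mean level was 72.3 ± 3.25 CPM (SD, n = 2). At rank 222 and 221 it was the middle gene of the 443 detected at 1 CPM or more in both libraries, while Mir143 was 83.8 times and Mir126a 322 times that middle level in CPM. Mir145b, a relative of Mir145a also annotated on the mouse genome, had 0 reads in both libraries, which allows up to 0.875 CPM in replicate 1 and 0.522 CPM in replicate 2.

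**Figure D1:**
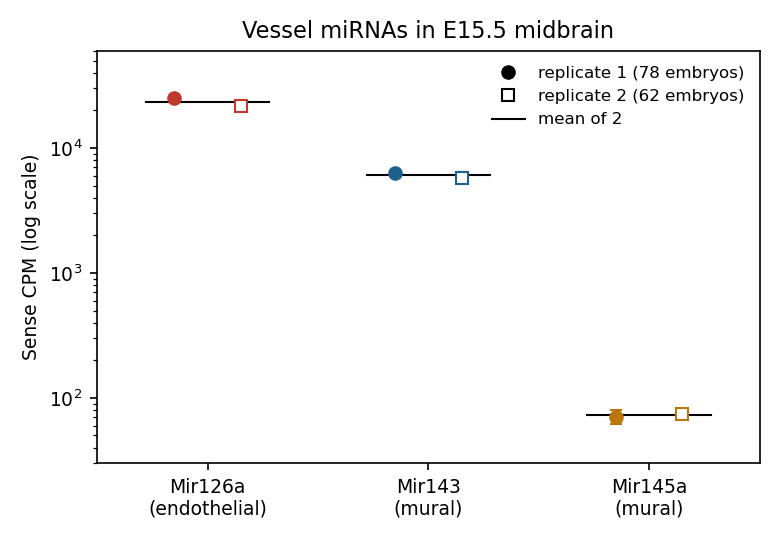
Level of each vessel miRNA in each library, in sense CPM on a log axis, with 95% exact counting intervals and the mean of 2 libraries as a line. Mir126a is near 23238 CPM, Mir143 near 6058 CPM and Mir145a near 72.3 CPM, and the gaps between genes exceed the gap between libraries for each.

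The order Mir126a, Mir143, Mir145a was the same in both libraries and no pair of them overlapped. A small RNA read spans a whole mature miRNA, so reads are usually compared without regard to gene length. Per 100 annotated bases the order was the same, with Mir126a at 34121 and 29546 CPM, Mir143 at 10034 and 9196 CPM and Mir145a at 99.97 and 107 CPM in replicates 1 and 2. Ligation and amplification can favour some miRNAs over others in both libraries alike. The spread between replicates does not show that, and its part in the order was not tested.

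**Figure D2:**
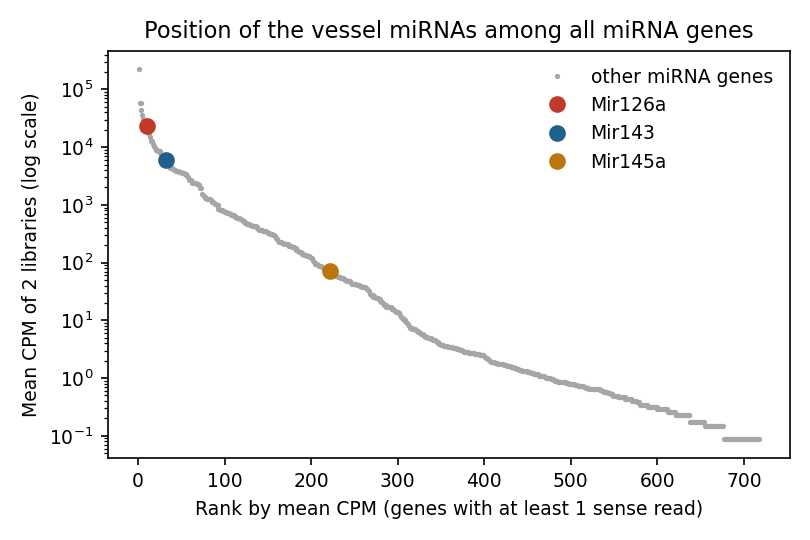
Mean CPM of 2 libraries on a log axis against rank for every miRNA gene with at least 1 sense read. Mir126a stands at rank 10 and Mir143 at rank 32 on the steep left end. Mir145a stands at rank 222, the middle of the 443 genes with at least 1 CPM in both libraries.

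In the list of all genes by mean level, Mir126a stood between Mir99b above it and Mir149 below it. Mir99b had 25881 and 25990 CPM in replicates 1 and 2, above Mir126a in each and with no overlap of their ranges. Mir149 had 21054 and 23524 CPM, a range that overlaps that of Mir126a. Mir411 (6209 ± 506 CPM) and Mir151 (5699 ± 441 CPM) stood directly above and below Mir143, and Mir194-2 (74.6 ± 9.13 CPM) and Mir150 (69.4 ± 2.94 CPM) directly above and below Mir145a. All 4 overlapped the member they stood beside, so none of these neighbours differed from it beyond the replicate spread.

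Likeness of pattern was measured as the distance between genes in log2(CPM + 1) over the 2 libraries, which says how close a gene was in level and in its tilt between pools. Nearest to Mir126a were Mir149 (distance 0.27), Mir99b (0.27) and Mir30e (0.32), whose log2 ratios of replicate 1 over replicate 2 were -0.16, -0.0061 and -0.19, against 0.21 for Mir126a. Nearest to Mir143 were Mirlet7d (0.12), Mir125a (0.16) and Mir181a-1 (0.17), with log2 ratios of 0.21, -0.047 and -0.0062, against 0.13 for Mir143. Nearest to Mir145a were Mir877 (0.077), Mir6944 (0.11) and Mir150 (0.15), the last a miRNA of lymphocytes. With 2 libraries these distances are mainly distances of level, and the level of Mir181a-1, which has a copy elsewhere in the genome, is uncertain.

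The endothelial to mural ratio was close to 4 reads of Mir126a for each read of the Mir143 and Mir145a cluster. It was 3.90 (95% exact interval 3.84 to 3.96) in replicate 1, from 85429 against 21921 reads, and 3.68 (3.63 to 3.72) in replicate 2, from 124071 against 33756 reads. The mean ratio was 3.79 ± 0.157 (SD, n = 2). Per annotated base the ratio was 3.37 in replicate 1 and 3.18 in replicate 2. Replicate 1 exceeded replicate 2 in this ratio by 1.06 times (1.04 to 1.08, exact conditional interval), more than counting error, with 1 library per pool and so no replicate check. Because the ratio is formed within a library, it does not depend on how libraries are scaled.

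Nearly all of the mural side of that ratio was Mir143. Mir145a made up 1.09% of the cluster's reads (0.961 to 1.24) in replicate 1 and 1.27% (1.15 to 1.40) in replicate 2. With Mir143 alone as the mural side the ratio was 3.94 and 3.72 in replicates 1 and 2, and with Mir145a alone it was 356 and 289. Which mural gene is used therefore sets the size of the ratio, while it was higher in replicate 1 with each. Together the 3 genes held 3.13% of sense reads in replicate 1 and 2.74% in replicate 2, of which Mir126a was 79.6% and 78.6%.

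**Figure D3:**
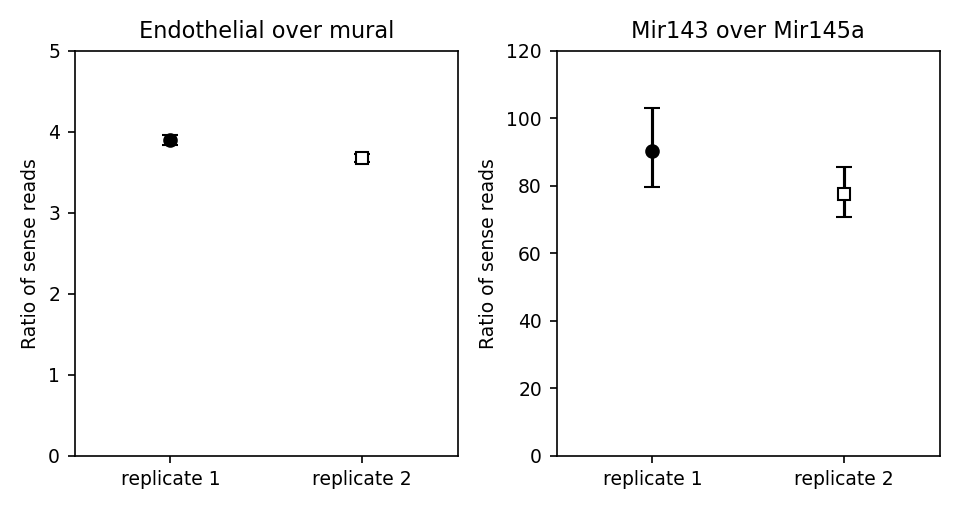
Ratio of sense reads in each library, with 95% exact counting intervals and axes from 0. The left panel gives Mir126a over Mir143 plus Mir145a, at 3.90 and 3.68 in replicates 1 and 2, with intervals that do not overlap. The right panel gives Mir143 over Mir145a, at 90.3 and 77.7, with intervals that overlap.

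Within the cluster, Mir143 outnumbered Mir145a by 90.3 times (79.5 to 103) in replicate 1 and by 77.7 times (70.6 to 85.6) in replicate 2, a mean of 84.0 ± 8.95 (SD, n = 2). The libraries differed in this ratio by 1.16 times (0.990 to 1.37), an interval that includes equality. Per annotated base the mean ratio was 93.3 ± 9.94. So 2 miRNAs known to come from the same primary transcript were counted at very different levels, and in both pools alike.

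Uneven neighbours were common among the miRNA genes of these libraries. Pairs of neighbouring genes on the same strand, at most 10 kb apart and each averaging 10 CPM or more, numbered 81, and the median pair differed by 6.39 times in mean CPM. Mir143 and Mir145a, at 83.8 times, were the 12th most uneven pair, and 85.2% of pairs were less uneven. At the top stood Mir382 and Mir544 (690.1 times), and Mir99a with Mirlet7c-1 (549 times). Some genes in these pairs, such as Mirlet7c-1, have copies elsewhere in the genome, and reads that map to several places are left out. The unevenness of such pairs is therefore uncertain, and with it the median and the share of less uneven pairs. Mir23a and Mir27a, a cluster active in endothelial cells, were 100.2 times apart, with 4225 ± 756 CPM for Mir23a and 42.2 ± 9.23 CPM for Mir27a.

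**Figure D4:**
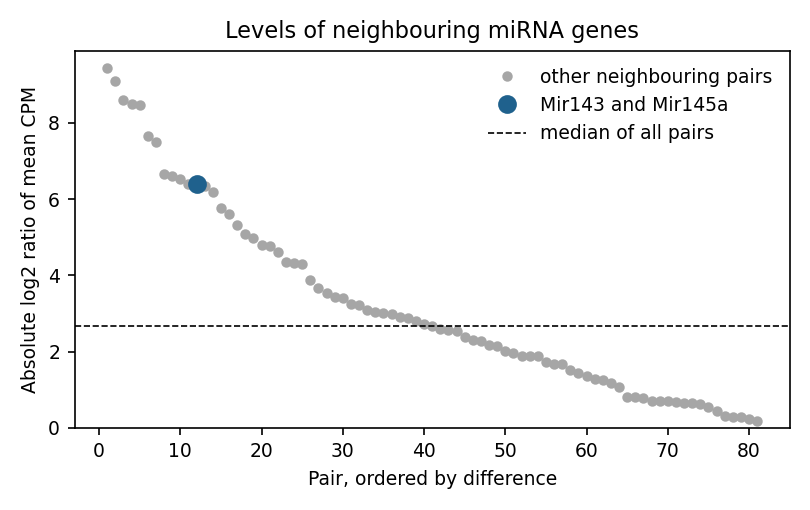
Absolute log2 ratio of mean CPM for 81 pairs of neighbouring miRNA genes on the same strand, ordered from most to least uneven, with the median as a dashed line. Mir143 and Mir145a are the 12th pair at 6.39, where the median is 2.68.

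Shared sequence can lower a count, since reads with several mapping places were tallied apart and given to no gene. They were 37.7% of all listed reads in replicate 1 and 35.8% in replicate 2. None of the 3 members shares a run of 20 bases with another miRNA transcript of GENCODE M21. The longest shared run was 11 bases for Mir126a and 11 for Mir143. For Mir145a it was 17, with Mir145b. The part of this 17-base run in the low count of Mir145a was not tested.

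Reads on the strand opposite to the members were nearly absent. Mir126a had 0 opposite reads in replicate 1 and 7 in replicate 2, or 0.00564% of its reads there, and Mir143 and Mir145a had 0 in both libraries. Over all miRNA genes, opposite reads were 2.23% of gene reads in replicate 1 and 2.36% in replicate 2. The deposited table has no row of its own for Mir126b, which lies on that strand, so reads opposite to Mir126a are the count that covers it. In replicate 1, 0 reads allow a share of up to 0.00351%.

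Between the pools, all 3 members stayed within 1.2-fold, and the direction of Mir145a was not resolved. Replicate 1 over replicate 2, Mir126a had a log2 CPM ratio of 0.21 (95% counting interval 0.20 to 0.22), or 1.15-fold, and Mir143 of 0.13 (0.10 to 0.15), or 1.09-fold. Mir145a had a log2 ratio of -0.091 (-0.33 to 0.14), or 0.938-fold, with an interval on both sides of equality. Past 1.2-fold in either direction lay 0 of the 3 members, against 20.1% of the 308 genes that averaged 10 CPM or more. Past 1.1-fold lay 1, Mir126a, against 47.7% of those genes. The median absolute log2 ratio over the 308 genes was 0.13, and 72.7% of them had a smaller absolute ratio than Mir126a, 47.7% a smaller one than Mir143 and 34.7% a smaller one than Mir145a. The members were thus no further apart between pools than many other miRNAs. Every ratio compares these 2 libraries only.

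**Figure D5:**
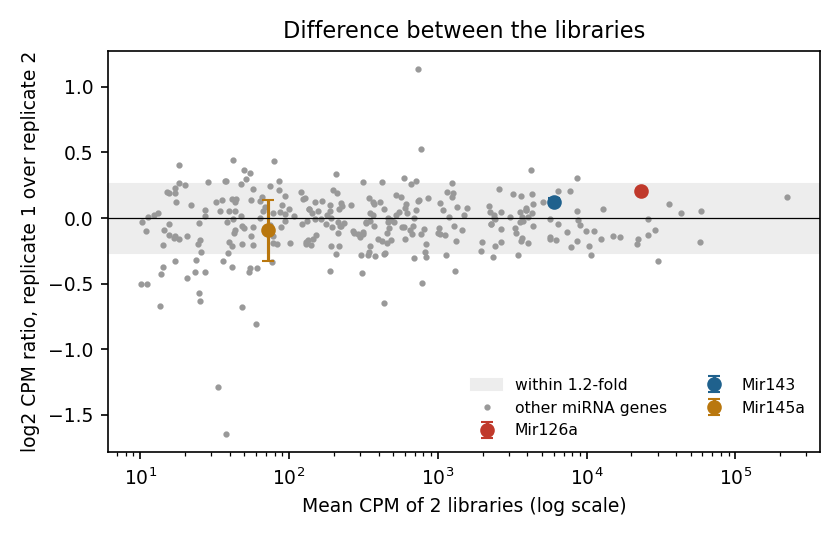
Log2 ratio of CPM, replicate 1 over replicate 2, against mean CPM on a log axis for the 308 miRNA genes that averaged 10 CPM or more. The shaded band is within 1.2-fold, and bars on the members are 95% counting intervals. All 3 members lie in the band, Mir126a at 0.21, Mir143 at 0.13 and Mir145a at -0.091.

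Other miRNAs studied in vessel growth were all present. Of 14 on the list, 14 had at least 1 CPM in both libraries, as had 22.5% of all 1973 genes. They ran from Mir218-1 at 18.2 ± 1.48 CPM to Mir130a, which promotes an angiogenic state in human endothelial cells, at 28985 ± 1309 CPM. Mir130a was the only one of them above Mir126a in mean level. Mir221 and Mir222, neighbours known to restrain Kit in endothelial cells, had 188 ± 8.94 CPM and 108 ± 1.02 CPM, and hypoxia-induced Mir210 had 313 ± 41.8 CPM. Mir322 stood at 7404 ± 376 CPM and Mir296 at 3703 ± 281 CPM. Past 1.2-fold between the pools were 5 of the 14, where 20.1% of the 308 genes were. Of these, 4 were higher in replicate 1, namely Mir23a, Mir27a, Mir210 and Mir503, and 1 was lower, Mir10a, while over the 308 genes 21 were higher in replicate 1 and 41 lower. The median log2 ratio of the list was 0.052, against -0.030 over the 308 genes. Most of these miRNAs are also made outside vessels, so their levels do not by themselves measure vessel cells. The list was chosen with earlier results of these data known, and 1256 of the 1973 genes had no sense count. Detection of all 14 is therefore no measure of enrichment of vessel miRNAs, and the tilt of the list between pools is no test of a vessel shift. Mir23a and Mir27a also lie only 79 bases apart in the same cluster, so they do not count as separate cases.

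Other cell types that the dissected tissue could hold had summed levels below that of Mir126a, though mostly not below that of Mir145a. Red cell genes, 3 of 3 in the table, came to 197 CPM in replicate 1 and 208 CPM in replicate 2, led by Mir451a (145 ± 11.5 CPM). White cell and microglial genes, 3 of 4 in the table, came to 334 and 319 CPM, led by Mir223 (158 ± 4.32 CPM). Mir142a had no row of its own, so this sum and the order within the list leave it out. Genes of mesenchyme and meninges, 5 of 5, came to 4006 and 3979 CPM, most of it Mir140 (3682 ± 14.2 CPM), below Mir143 and far above Mir145a, while Mir214 had 218 ± 7.14 CPM and Mir199b 87.8 ± 2.94 CPM. Muscle genes, 7 of 8, came to 35.9 and 71.1 CPM, led by Mir208b (33.3 ± 20.3 CPM). Of these, Mir1a-1, Mir133a-1 and Mir133a-2, which smooth and striated muscle can make, had 0 reads. Their mature miRNAs are also made from copies elsewhere in the genome, and reads that map to several places are left out. These 0 counts therefore do not show that the miRNAs were absent. The same limit holds for the Mir199 genes of the mesenchyme list, so the sum of that list may be too low. The white cell and mesenchyme sums were 1.05 and 1.01 times as high in replicate 1 as in replicate 2, the red cell sum 0.948 times and the muscle sum 0.504 times, where Mir126a was 1.15 times and Mir143 1.09 times. Within the red cell list Mir144 was higher in replicate 1 (log2 ratio 0.28) and Mir451a lower (-0.16). The part of these cells in the levels of Mir143 and Mir145a was not tested, nor could endothelial or mural identity be checked with other genes, since no messenger RNA is counted in these tables.

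As a check of the tissue, the neural list had 8 of its 9 genes in the table, with a summed level of 13414 CPM in replicate 1 and 14512 CPM in replicate 2. It was led by neuronal Mir137 (11192 ± 555 CPM) and Mir128-1 (1447 ± 62.5 CPM), while the copies of Mir124a, a miRNA that defines neurons, had at most 3.69 ± 0.551 CPM each in these counts. On the same list, Mir9-3 had 484 ± 39.7 CPM and Mir9-2 had 1.66 ± 0.131 CPM. Genes with copies elsewhere in the genome, such as Mir124a, Mir9-3, Mir128-1 and Mir218-1, have uncertain levels here. Reads that map to several places are left out, so the neural sum may be too low and the order within the list is uncertain. All listed reads numbered 7557669 in replicate 1 and 13115314 in replicate 2, of which 3429704 and 5752476 were sense reads of miRNA genes. At these depths 1 read equals 0.292 CPM in the library of replicate 1 and 0.174 CPM in that of replicate 2.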

How the data were processed

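The authors deposited whole read counts per miRNA gene for each library, without normalization, in 3 columns (without regard to strand, sense and opposite strand). Per the deposited readme text, reads were aligned to mm10 with GENCODE annotation M4. Which aligner and counter were run, and how, is not given in the sources used here. Of 1973 identifiers, 1894 were matched to GENCODE M21 symbols on the same assembly. The 4 rows that name no gene (54.6% and 56.1% of listed reads in replicates 1 and 2) were kept out of library sizes.

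The sense counts were scaled to CPM over all genes. With 1 group there is no contrast for edgeR's quasi-likelihood test, so no p-value is given. Intervals are exact (Clopper-Pearson or conditional, 95%) and, like the floor of 3 counts for a gene at 0, cover counting error only. Ratios between libraries are replicate 1 over replicate 2 on log2(CPM + 1). The labels number the pools as biological replicates, and both carry the same donor identifier, so the SD over 2 libraries may be partly technical.

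The members and lists were chosen with earlier results of these data known. Named genes are the members, the 3 genes nearest to each and those ranked beside each, list members (up to 4 per list, and those at 0), and genes overlapping a member. Uneven pairs other than Mir143 and Mir145a, the genes past 1.2-fold and other list members were named after their values were seen. Listed symbols without a row of that name (Mir126b, Mir1a-2, Mir142a and Mir9-1) were not used here. Python 3.11.15 (scipy 1.17.1), R 4.3.3, edgeR 4.0.16 (TMM and upper-quartile scaling) and DESeq2 1.42.0 (size factors) were used. The ratios were tested on simulated counts that held counting error only, so that check says nothing about the spread between libraries.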

Additional observations from a re-analysis of the deposited data

Results flagged for a closer look

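Mir126a had 7 reads on its opposite strand in replicate 2, above the 3 counts that an observed 0 allows, and 0 in replicate 1. These reads lie outside the sense counts on which all levels above rest. They were 0.00564% of the reads at that gene in replicate 2, where opposite reads made up 2.36% of the reads at all miRNA genes.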

How the results depend on the processing

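Of 33 alternatives for levels, ratios within a library and log2 ratios, 18 moved the value by less than its spread (the SD of 2 libraries, or the counting interval for log2 ratios) and 15 moved it further. Of 9 for the count of genes past 1.2-fold, 5 stayed within 1.5 times the count, and the 3 for neighbouring pairs gave 83.7% to 85.3% of pairs less uneven. The log2 ratios kept their sign under every alternative, while levels and counts of genes have no direction to reverse. The endothelial to mural ratio was 323 with Mir145a alone as mural and 3.27 per annotated base, and Mir143 over Mir145a was 93.3 per annotated base. With all reads listed as denominator, Mir126a, Mir143 and Mir145a stood at 10382, 2705 and 32.2 CPM, and without the most counted gene, Mir99a, at 29967, 7808 and 93.0 CPM. The log2 ratio between the libraries was 0.24, 0.25 and 0.24 for Mir126a and 0.16, 0.17 and 0.16 for Mir143 with TMM, DESeq2 and upper-quartile scaling, which moved the median of the 308 genes of at least 10 CPM by at most 0.038. Genes past 1.2-fold numbered 62, against 166 with a mean of at least 1 CPM and 28 with at least 100 CPM. Past 1.1-fold there were 147 and past 1.5-fold 8.

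Leaving out each replicate leaves the value of the other library, which with n = 2 says nothing about stability. It gave 3.68 to 3.90 for the endothelial to mural ratio, 77.7 to 90.3 for Mir143 over Mir145a, and 21568 to 24909, 5794 to 6322 and 70.0 to 74.6 CPM for Mir126a, Mir143 and Mir145a. No paired analysis was possible because there is 1 group. Depth limits mainly Mir145a, whose counting error is 6.45% in replicate 1 and 4.83% in replicate 2.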
